A study of Mus musculus with 26 samples.

Results

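The genes described here, listed under the name maternal cofactors of genome activation, are 8: Nfya, Nfyb, Nfyc, Smarca4, Yap1, Kdm5b, Ctcf and Trim24. They were taken by symbol from 24412 listed genes, as a fixed list of symbols proposed when earlier results of these data were known, and each was found in all 3 expression tables. The data are RNA-seq libraries of polyA RNA from C57BL/6J mouse oocytes and embryos, 26 libraries in 13 groups of 2. Mutant oocytes came from females with Zp3-Cre, a transgene active in growing oocytes, and floxed alleles of Kdm3a and Kdm3b (Kdm3a f/f, Kdm3b f/f), which encode H3K9 demethylases. Fertilisation in vitro with wild-type sperm gave embryos without the maternal supply of both enzymes, called mDKO here. One table covers both genotypes as metaphase II oocytes (MII) and as embryos at the early (E2C) and late (L2C) 2-cell stages. The next covers E2C embryos after injection: control with mCherry, and mDKO with mCherry, Kdm3aWT or Kdm3aHA. The last covers 4-cell embryos (4C) of wild-type genotype, given mCherry or either Kdm3a construct. The genotype of the controls is labelled only as control, and the labels leave HA undefined. Each library was made from a pool of 12 to 20 embryos (20 at L2C). Nothing in the labels ties the 2 pools of a group to different matings or dates, and the p-values may therefore reflect spread that is technical.

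In the mouse, the embryonic genome is silent after fertilisation, is switched on weakly by the early 2-cell stage and strongly by the late 2-cell stage. Until then the embryo runs on RNA and protein stored in the oocyte. NF-Y is a transcription factor of the subunits NFYA, NFYB and NFYC that binds CCAAT sequences in promoters: NFYB and NFYC pair through histone folds, and NFYA joins them and contacts the DNA. SMARCA4 (BRG1) is the ATPase of SWI/SNF chromatin remodelling complexes, YAP1 is the coactivator that the Hippo kinases hold back, and KDM5B removes methyl groups from lysine 4 of histone H3. CTCF shapes chromosome loops together with cohesin, and TRIM24 (TIF1-alpha) is a chromatin-reading coregulator of nuclear receptors.

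Promoter sequence was available from RefSeq (GRCm38.p6) for all 8 members, as 13 windows running from 250 to 11 bases before an annotated transcript start. Each window was searched for CCAAT and its reverse complement ATTGG, the letters that NF-Y binds, since 3 of the members encode NF-Y itself. Of the 8 members, 3 had a window with a match: Nfya (1 match in 1 window), Nfyc (4 and 2 matches in 2 windows) and Trim24 (2 matches). Over all 17223 genes of the tables with a window, 38.3% had a match in any window. By window, 4 of the 13 member windows held a match, and 33.0% of 32851 promoter windows of the same length did, with 9.64% holding at least 2 and 2.62% at least 3. A match is a run of letters and not a shown binding site. Shown first are the windows of Nfyb (chr10:82764152-82764391, minus strand) and Kdm5b (chr1:134559928-134560167, plus strand), the members whose lower level in L2C mDKO embryos passed under every alternative setting; no match lies in them. The Nfyc window with 4 matches (chr4:120825220-120825459, minus strand) and the Trim24 window with 2 (chr6:37870561-37870800, plus strand) follow. Letters run 5′ to 3′ on the gene's strand, and capitals mark CCAAT or ATTGG. Relative to the transcript start, the matches begin at -247, -99, -63 and -25 in Nfyc and at -189 and -65 in Trim24.
Nfyb: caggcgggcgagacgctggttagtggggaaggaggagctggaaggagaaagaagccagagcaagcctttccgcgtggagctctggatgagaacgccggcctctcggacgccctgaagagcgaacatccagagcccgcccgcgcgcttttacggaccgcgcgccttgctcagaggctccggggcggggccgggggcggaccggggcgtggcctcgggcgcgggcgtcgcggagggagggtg
Kdm5b: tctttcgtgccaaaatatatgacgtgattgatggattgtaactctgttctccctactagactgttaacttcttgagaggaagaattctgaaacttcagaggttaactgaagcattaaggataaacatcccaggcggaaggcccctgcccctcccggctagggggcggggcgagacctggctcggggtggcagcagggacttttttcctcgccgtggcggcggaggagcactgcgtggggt
Nfyc: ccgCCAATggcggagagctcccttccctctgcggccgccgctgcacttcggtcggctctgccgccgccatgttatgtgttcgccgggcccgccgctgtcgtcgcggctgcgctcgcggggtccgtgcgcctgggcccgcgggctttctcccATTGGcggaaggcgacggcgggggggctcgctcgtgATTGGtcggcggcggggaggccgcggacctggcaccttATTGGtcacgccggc
Trim24: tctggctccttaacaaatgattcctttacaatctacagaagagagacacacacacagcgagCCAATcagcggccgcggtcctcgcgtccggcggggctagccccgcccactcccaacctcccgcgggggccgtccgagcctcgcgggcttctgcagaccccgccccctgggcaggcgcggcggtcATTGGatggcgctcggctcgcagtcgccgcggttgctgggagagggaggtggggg

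Values are TPM, the length-corrected share of each transcript scaled to a fixed total, so levels can be compared between genes, but sequencing depth is unknown. Libraries had 7649 to 12396 genes at 1 TPM or more, and replicates of a group correlated at 0.968 to 0.995 on the log scale across genes. Kdm3a was at 8.08 and 8.83 TPM in control MII oocytes and at 0.725 and 0.718 in mDKO oocytes, while at L2C it was at 34.1 and 43.8 against 28.4 and 26.3 TPM. The transcript was thus low in mDKO oocytes and present again at L2C, where the titles say DKO and the genotype label says maternal. Markers of the oocyte reached 1 TPM in 10 of 10 cases in all MII and 2-cell groups. Those of early 2-cell transcription reached it in 2 of 8 cases at MII and in 7 or 8 of 8 at the 2-cell stages. In pooled embryos, fewer cells with an RNA and less RNA per cell cannot be told apart.

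Across control development, the 8 members fell into different temporal patterns. Nfya and Yap1 were abundant in oocytes and fell steeply by E2C, Kdm5b, Nfyb and Smarca4 rose from E2C to L2C, Nfyc fell at both steps, Trim24 peaked at E2C, and Ctcf did not pass at either step. Between MII and E2C, 2 members rose (35.1% of all tested genes did) and 3 fell (37.0%). Between E2C and L2C, 3 rose (35.5%) and 2 fell (30.1%). MII libraries were made with a TruSeq Stranded mRNA kit and E2C libraries with SMART-Seq kits, and the L2C kit is not given, so stage and kit cannot be told apart.

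The NF-Y subunits did not move together. Nfya (chr17:48386885-48409820) was at 763 and 780 TPM in control oocytes, 18.6 and 15.3 in control E2C and 14.3 and 19.8 in control L2C embryos. The oocyte libraries lay far above the embryos, whose stages overlapped. Nfya fell by 5.43 ± 0.19 (standard error) on the log2(TPM + 1) scale from MII to E2C, adjusted p = 1.48e-09 in limma with Benjamini-Hochberg adjustment over all genes tested. From E2C to L2C its log2 fold change was -0.0031 ± 0.19. Nfyb (chr10:82748700-82764151) was at 16.6 and 18.0 TPM at MII, 16.04 and 14.2 at E2C and 56.1 and 52.7 at L2C in controls. Its MII and E2C libraries lay close together and both L2C libraries stood above them, with a rise of 1.78 ± 0.16 from E2C to L2C, adjusted p = 1.85e-06. Nfyc (chr4:120757435-120831579) was at 163 and 198 TPM at MII, 96.8 and 84.1 at E2C and 45.7 and 63.1 at L2C. It fell by 0.99 ± 0.17 at the first step (adjusted p = 2.98e-04 in limma) and by 0.74 ± 0.17 at the second (adjusted p = 0.00275 in limma), with no overlap between stages.

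The ratio of Nfya to Nfyb shows how far the subunit RNAs drifted apart. It was 46.0 and 43.2 in control oocytes, 1.16 and 1.08 in control E2C embryos, and 0.255 and 0.376 in control L2C embryos. In the wild-type 4C embryos with mCherry, which were injected and form a separate set of libraries, it was 0.0232 and 0.00905. Nfyc to Nfyb went from 9.84 and 10.97 at MII to 6.04 and 5.94 at E2C and 0.814 and 1.198 at L2C. The most abundant subunit RNA was thus Nfya in oocytes, Nfyc at E2C, and Nfyb or Nfyc at L2C, where their libraries overlapped.

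**Figure D1:**
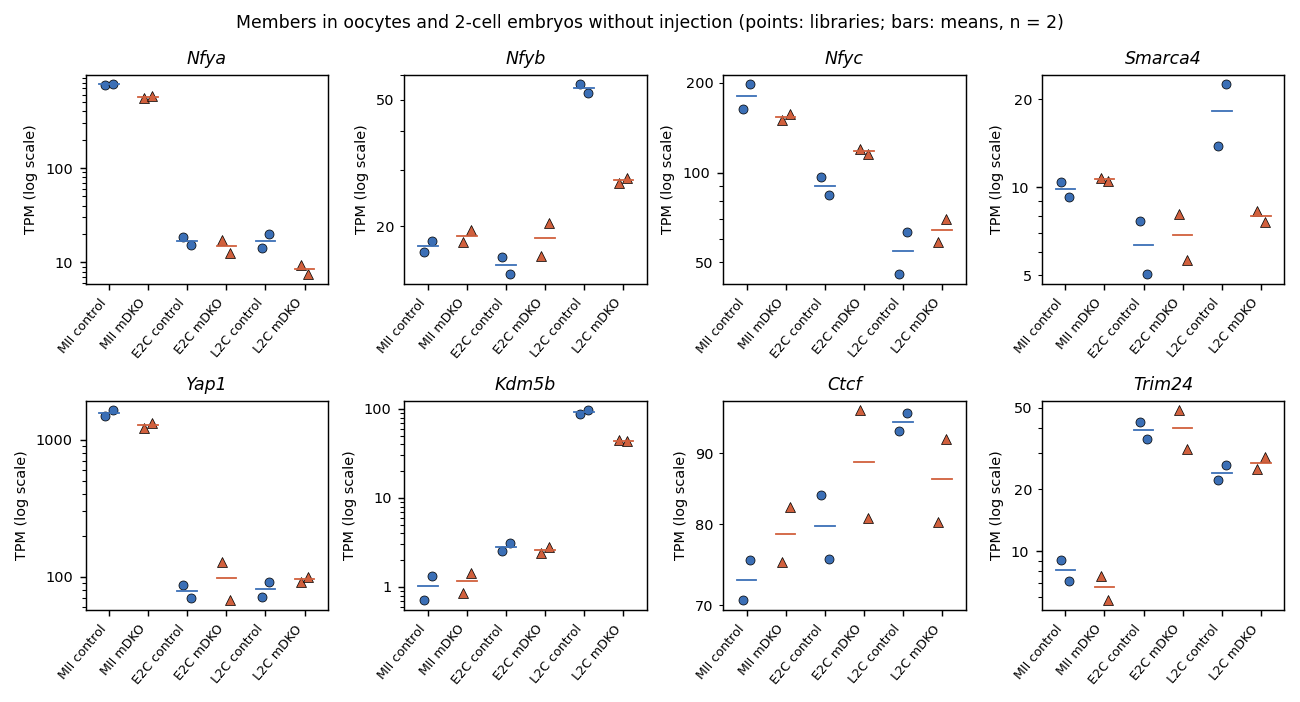
Level of each member in TPM (log axis, own range per panel) in control (circles) and mDKO (triangles) MII oocytes, E2C and L2C embryos; points are the 2 libraries of a group and bars their mean. Nfya and Yap1 drop from MII to E2C in both genotypes, and Kdm5b, Nfyb, Smarca4 and Nfya are lower in mDKO than in control libraries at L2C.

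Smarca4 (chr9:21616106-21704230) was a low transcript throughout, at 10.5 and 9.25 TPM in control oocytes, 7.68 and 5.06 at E2C and 13.9 and 22.6 at L2C. It rose by 1.37 ± 0.26 from E2C to L2C, adjusted p = 6.90e-04 in limma. From MII to E2C it was at -0.58 ± 0.26 (adjusted p = 0.0631 in limma), and it passed without E2C control replicate 1 (-0.84, 0.0317). The alternative ATPase of the same complexes, Smarca2, was far more abundant in 2-cell embryos: it was at 24.2 and 18.2 TPM in control oocytes, 364 and 372 at E2C and 249 and 293 at L2C. The ratio of Smarca4 to Smarca2 was 0.0211 and 0.0136 at E2C and 0.0557 and 0.0769 at L2C in controls, and in 4C embryos with mCherry it was 6.98 and 1.35. The ATPase RNA that predominated was Smarca2 at the 2-cell stages and Smarca4 in those 4C libraries.

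Yap1 (chr9:7931999-8004638) was the most abundant member in oocytes, at 1493 and 1633 TPM in controls, and stood at 86.7 and 70.7 at E2C and 71.5 and 91.2 at L2C. The embryo stages overlapped, and the fall from MII to E2C was 4.30 ± 0.24, adjusted p = 3.07e-08 in limma. Its paralogue Wwtr1 (TAZ) was near the floor in control oocytes and E2C embryos, between 0.431 and 1.202 TPM, and reached 10.7 and 14.6 TPM at L2C. It rose by 2.98 ± 0.25 between those embryo stages.

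Kdm5b (chr1:134560178-134632878) had the widest rise of the 8. Although the list is named maternal, Kdm5b RNA was near the 1 TPM filter in control oocytes, at 0.707 and 1.33 TPM. Kdm5b was at 2.56 and 3.12 TPM in control E2C embryos and at 87.3 and 96.4 in control L2C embryos. It rose by 0.94 ± 0.22 at the first step (adjusted p = 0.00211 in limma) and by 4.60 ± 0.22 at the second (adjusted p = 2.01e-08 in limma), and no stages overlapped. The related H3K4 demethylase gene Kdm5a followed at a lower level, with 0.606 and 0.772 TPM at E2C and 18.0 and 20.0 at L2C.

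Ctcf (chr8:105636474-105682922) was the most even member, with control libraries at 70.6 and 75.4 TPM at MII, 83.9 and 75.5 at E2C and 93.3 and 96.2 at L2C. Its change from MII to E2C was 0.12 ± 0.14, adjusted p = 0.430 in limma; with median-ratio size factors in place of TPM as deposited it was 0.47 and passed (adjusted p = 0.00334), while the median of all genes moved from 0.03 to 0.19. Its paralogue Ctcfl was listed at 0 in all MII and E2C libraries without injection. Trim24 (chr6:37870811-37968445) was at 9.01 and 7.14 TPM in control oocytes, 42.5 and 35.1 at E2C and 22.2 and 26.2 at L2C. It rose by 2.14 ± 0.23 to E2C, adjusted p = 6.03e-06 in limma. The later fall of 0.66 ± 0.23 (adjusted p = 0.0250 in limma) did not pass without E2C control replicate 1 (0.147), without L2C control replicate 1 (0.132) or without a filter on low TPM (0.0699). Its relative Trim28 ran the other way, with 613 and 603 TPM at MII, 5.76 and 4.87 at E2C and 54.6 and 59.0 at L2C.

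The order of the members by level changed with stage. In control oocytes it was Yap1, Nfya, Nfyc, Ctcf, Nfyb, Smarca4, Trim24 and Kdm5b, with no overlap between neighbours. At E2C Nfyc led, overlapping Yap1, and Kdm5b was still last, while Nfya and Nfyb overlapped. At L2C Ctcf, Kdm5b and Yap1 led with overlapping libraries, Nfyb and Nfyc overlapped below them, and Trim24, Smarca4 and Nfya formed the low end. In 4C embryos with mCherry Nfyb and Nfyc led with overlapping libraries, Kdm5b and Ctcf overlapped below them, Smarca4, Trim24 and Yap1 overlapped in turn, and Nfya was last.

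The same stage steps were read in mDKO embryos. From MII to E2C, 2 members rose (31.7% of tested genes) and 2 fell (35.5%): Trim24 and Kdm5b rose by 2.40 and 0.75, Nfya fell by 5.18 and Yap1 fell by 3.76. From E2C to L2C, 2 rose (31.9%) and 2 fell (20.8%): Kdm5b rose by 3.66 and Nfyb by 0.59, and Nfyc fell by 0.87 and Nfya by 0.74. Smarca4, which rose in controls, had a log2 fold change of 0.21 ± 0.26 in mDKO embryos, adjusted p = 0.537 in limma. Of these calls, Kdm5b at the first step did not pass without MII mDKO replicate 1 (adjusted p = 0.0885 in limma), Nfyb not without E2C mDKO replicate 1 (0.0533), and Nfya not without E2C mDKO replicate 1 (0.0631) or L2C mDKO replicate 2 (0.0667). Trim24, at -0.52 ± 0.23 between E2C and L2C, passed without E2C mDKO replicate 2 (-0.83, 0.0142) and with size factors (0.0123), and Yap1 passed as higher without E2C mDKO replicate 1 (0.51, 0.0389). From MII to E2C, Smarca4 passed as lower without E2C mDKO replicate 1 (-0.81, 0.0394), and Ctcf as higher with size factors (0.45, 0.00480).

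Whether the loss of the demethylases already changed these RNAs in the oocyte was read at MII. Nfya was the 1 member called, lower in mDKO, against 3.41% of all tested genes called lower. It was at 763 and 780 TPM in control oocytes and 556 and 589 in mDKO, so the groups did not overlap. The difference was -0.43 ± 0.07, adjusted p = 0.0359 in limma. This call ended without any 1 of the 4 libraries (adjusted p = 0.0758 to 0.212), with size factors (0.0644), with no filter on low TPM (0.170) and in the fit of all 12 uninjected libraries (0.274). Yap1 also had separate groups, 1493 and 1633 against 1214 and 1326 TPM, at -0.30 ± 0.08 with an adjusted p of 0.101 in limma. With the replicate number as a block Yap1 passed (0.0208). The other 6 members had log2 fold changes between -0.25 and 0.11. The 10 oocyte markers together were at 39049 to 40910 TPM in control and 48108 to 48182 in mDKO oocytes, and their part in the result was not tested.

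At E2C, limma called 0 of the 8 members in mDKO against control embryos, where 14.4% of all tested genes were called. Of the 8, 1 had an unadjusted p under 0.05, as did 3273 of all genes. That member was Nfyc, at 96.8 and 84.1 TPM in control embryos and 120.2 and 115 in mDKO embryos. Its groups did not overlap, and the difference was 0.38 ± 0.15, adjusted p = 0.126. Yap1 was at 128 and 67.4 TPM in the mDKO libraries, on either side of the control values, and without mDKO replicate 2 it was called higher at 0.70 (adjusted p = 7.82e-04). Nfya, at 17.2 and 12.7 TPM in mDKO embryos, overlapped the control libraries. In the same libraries the 8 early 2-cell markers summed to 1229 to 1774 TPM in control embryos and 282 to 318 in mDKO embryos, and their part in the members' values was not tested. The difference between the mDKO effects at E2C and at MII passed for 0 of 8 members in limma (3.88% of all genes), with 1 member and 2588 of all genes at an unadjusted p under 0.05. Without E2C mDKO replicate 2 that count was 1, Yap1 (1.001, adjusted p = 0.0353).

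At L2C the picture was different. Kdm5b, Nfyb, Smarca4 and Nfya were lower in mDKO embryos, 4 of 8 members against 23.3% of all tested genes called lower, and 0 were higher, against 19.1%. The median log2 fold change over the 8 members was -0.53, and over all tested genes it was -0.00066. The members' median fell in a gap: the called members lay between -1.06 and -0.92, and the others between -0.14 and 0.25. Nfyc, Trim24, Yap1 and Ctcf did not pass.

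Kdm5b was at 87.3 and 96.4 TPM in control L2C embryos and 44.7 and 43.6 in mDKO, with no overlap. It was lower by 1.04 ± 0.13, adjusted p = 0.00106 in limma, and passed under every alternative run (adjusted p up to 0.0348). Nfyb was at 56.1 and 52.7 TPM in control embryos and 27.4 and 28.4 in mDKO, again apart. Its difference of -0.94 ± 0.14 (adjusted p = 0.00207 in limma) also passed under every alternative run, up to 0.0302.

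Smarca4 was at 13.9 and 22.6 TPM in control embryos and 8.33 and 7.63 in mDKO. The groups did not overlap, but the control libraries differed widely from each other. The difference was -1.06 ± 0.25, adjusted p = 0.0141 in limma, and did not pass with no filter on low TPM (0.174). Nfya was at 14.3 and 19.8 TPM in control embryos and 9.44 and 7.51 in mDKO, a difference of -0.92 ± 0.23 (adjusted p = 0.0161 in limma). It did not pass without control replicate 2 (0.0666), without mDKO replicate 2 (0.0586) or with no filter (0.154).

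The members that did not pass at L2C lay on both sides of 0. Nfyc was at 45.7 and 63.1 TPM in control embryos and 58.4 and 69.9 in mDKO, with overlap, at 0.25 ± 0.19. Trim24 was at 22.2 and 26.2 against 25.2 and 28.9 TPM, also with overlap (0.16 ± 0.17). Yap1 was at 71.5 and 91.2 against 92.5 and 100.1 TPM, without overlap (0.25 ± 0.15). Ctcf was at 93.3 and 96.2 against 80.2 and 92.1 TPM, likewise without overlap, at -0.14 ± 0.13 with an adjusted p of 0.422 in limma. Within NF-Y, the ratio of Nfyc to Nfyb was 0.814 and 1.198 in control embryos and 2.13 and 2.46 in mDKO.

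**Figure D2:**
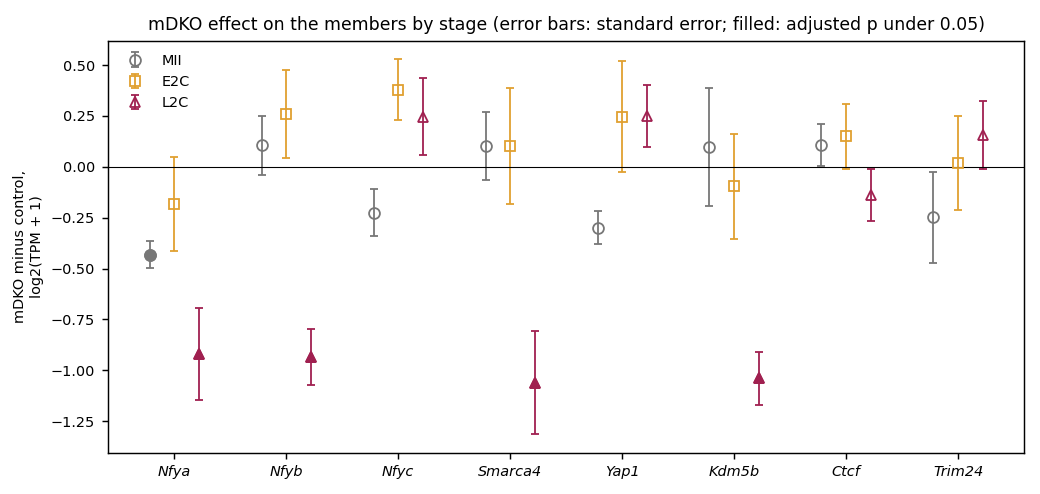
Difference between mDKO and control on the log2(TPM + 1) scale for each member at MII (circles), E2C (squares) and L2C (triangles), with standard errors; filled symbols passed an adjusted p of 0.05. Nfya is filled at MII and at L2C, joined at L2C by Nfyb, Smarca4 and Kdm5b between -0.94 and -1.06, and no symbol is filled at E2C.

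The change between stages was tested directly as the L2C effect minus the E2C effect, in 1 fit of the 12 uninjected libraries. It was negative and passed for 3 of 8 members, where 12.5% of all tested genes passed in that direction. These were Nfyb (-1.19 ± 0.22, adjusted p = 0.00337), Smarca4 (-1.16 ± 0.37, adjusted p = 0.0388) and Kdm5b (-0.94 ± 0.30, adjusted p = 0.0430). Nfya stood at -0.74 ± 0.27 with an adjusted p of 0.0709, and passed with size factors (0.0168), without E2C mDKO replicate 2 (0.0333) and without L2C control replicate 1 (0.0368). The members not yet named lay between -0.29 and 0.14. The E2C effect on Nfyb was 0.26 ± 0.21 in these libraries and -0.26 ± 0.21 in the injected mCherry libraries, and neither was called. Nfyb passed under every alternative run, up to 0.0172. Smarca4 did not pass with a pseudocount of 0.1 (0.0581), with no filter (0.104), or without 5 single libraries: E2C control replicate 2, E2C mDKO replicate 1, L2C control replicate 2 and either L2C mDKO replicate (0.0780 to 0.137). Kdm5b did not pass with a pseudocount of 0.1 (0.186), with no filter (0.0691), or without any 1 of the 8 E2C and L2C libraries (0.0561 to 0.125).

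Other RNA groups moved in the same L2C libraries. The summed level of 10 oocyte markers was 3227 to 3542 TPM in control and 8201 to 8459 in mDKO embryos, and that of 8 early 2-cell markers 697 to 913 against 2189 to 2677. Of 13 cumulus and granulosa markers, 5 reached 1 TPM in control and 6 in mDKO embryos, with sums of 58.9 to 66.9 and 109.7 to 115 TPM led by Serpine2. Amh, Cyp11a1, Fshr, Inhba and Ptx3 were at 0 in control and Ptx3 in mDKO embryos. Of 10 sperm and spermatid markers, 5 and 7 reached 1 TPM, with sums of 70.4 to 88.0 and 95.1 to 100.5 led by Odf2 and Akap4 at 0. Of 9 blood markers, 4 reached it in each genotype, with sums of 308 to 359.8 in control, led by Hba-a1, and 67.4 to 291 in mDKO embryos, led by Lyz2; Hbb-bs, S100a8 and S100a9 were at 0 in both. Their part in the members' results was not tested.

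The genes that work with each member were read from lists made for this description. In this contrast 23.3% of all genes fell and 19.1% rose. Here and in the later comparisons within a stage, rose and fell mean a higher or lower level than in the comparison group. No change over time is meant. Among 9 NF-Y-related promoter and histone-fold factors tested at L2C, 5 fell and 2 rose (median -0.83, beside -0.00066 over all genes). Dr1, a histone-fold repressor of transcription initiation, fell by 1.05 ± 0.13, Usf1 by 0.98 ± 0.25 and the histone-fold polymerase subunit gene Pole3 by 0.86 ± 0.14. Drap1, the partner of Dr1, rose by 1.17 ± 0.20 and Usf2 by 1.12 ± 0.19. Dr1 was at 121 and 110.0 TPM in control embryos and 52.5 and 58.4 in mDKO. Drap1 was at 9.51 and 12.3 in control embryos and 23.3 and 28.2 in mDKO, so 2 partners differed in opposite directions.

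Of 24 other SWI/SNF subunits tested at L2C, 7 rose, 5 fell and 12 did not pass (median -0.03). The core subunit gene Smarcc1 fell by 1.11 ± 0.18, from 23.5 and 29.98 to 11.7 and 11.9 TPM, and Brd9 by 1.10 ± 0.15 and Dpf3 by 0.79 ± 0.19. Dpf1 (0.97 ± 0.31), Phf10 (0.70 ± 0.15) and Ss18l1 (0.57 ± 0.19) rose. The ATPase Smarca2 was at 249 and 293 TPM in control L2C embryos and 361 and 379 in mDKO, a rise of 0.45 ± 0.12, adjusted p = 0.0213 in limma. The ratio of Smarca4 to Smarca2 was 0.0557 and 0.0769 in control embryos and 0.0231 and 0.0202 in mDKO, with no overlap.

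Among 12 tested Hippo kinases, adaptors and TEAD partners, 6 fell and 1 rose at L2C (median -0.62). Tead4, the DNA-binding partner of YAP1 needed for trophectoderm, fell by 1.52 ± 0.32, from 5.05 and 6.41 to 2.06 and 0.782 TPM. Of the paired Hippo kinases, Stk4 fell by 1.26 ± 0.21 and Stk3 rose by 1.11 ± 0.15, from 22.6 and 25.5 to 52.6 and 53.2 TPM. The kinase adaptor Mob1a fell by 1.22 ± 0.15, and Wwtr1 was at 5.05 and 6.15 TPM in mDKO embryos, a fall of 1.04 ± 0.23. Of 6 listed YAP target genes, 2 were expressed enough to be tested and both fell, Rpl13 by 1.49 ± 0.10 and Rrm2 by 0.56 ± 0.17. Rpl13 encodes a ribosomal protein; genes of this kind can have near-identical copies elsewhere in the genome, and how reads were shared among them was not checked, so its level is uncertain.

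Of 16 other H3K4 methylation enzymes and complex subunits, 2 rose and 3 fell at L2C (median 0.02). Kdm1b, an H3K4 demethylase of growing oocytes, rose by 1.904 ± 0.23, from 8.57 and 6.74 to 26.1 and 37.2 TPM, and Dpy30 by 1.01 ± 0.09. Ash2l (-1.06 ± 0.16), Kdm5a (-1.05 ± 0.19) and Wdr5 (-0.90 ± 0.14) fell. Kdm5a was at 18.0 and 20.0 TPM in control embryos and 9.58 and 7.86 in mDKO, while Kdm5c stood at -0.14 ± 0.27 and did not pass. The ratio of Kdm5b to Kdm5a was 4.86 and 4.81 in control embryos and 4.67 and 5.54 in mDKO.

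Among 16 cohesin and CTCF partners, 1 rose and 2 fell at L2C (median -0.19). Smc3, a cohesin core subunit, fell by 1.08 ± 0.14, from 54.2 and 49.0 to 23.9 and 23.8 TPM, and the kleisin gene Rad21 by 0.47 ± 0.12. Smc1a, the partner of Smc3, rose by 1.02 ± 0.19, from 13.4 and 17.5 to 33.9 and 30.3 TPM. Both tested relatives of Trim24 fell, Trim28 by 1.31 ± 0.14 to 23.3 and 21.4 TPM and Trim33 by 0.76 ± 0.16. Of 16 other regulators of genome activation, 9 fell and 1 rose (median -0.63): Dppa4 (-1.47 ± 0.11), Nr5a2 (-1.32 ± 0.22) and Chd1 (-1.23 ± 0.15) fell and Klf17 rose by 0.61 ± 0.14.

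**Figure D3:**
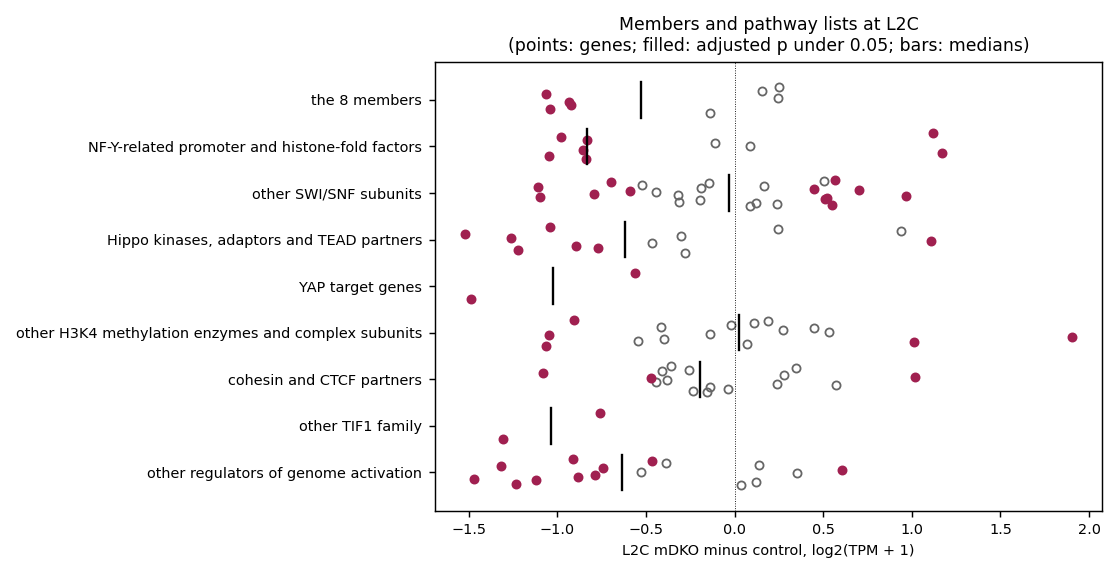
Difference between mDKO and control L2C embryos on the log2(TPM + 1) scale for each tested gene of the 8 members and of 8 lists of related genes; filled points passed an adjusted p of 0.05 and bars are list medians. The members' median is -0.53, in a gap between members at -0.92 and -0.14. Points lie on both sides of 0 in all lists except the YAP targets and the TIF1 family, each of 2 genes.

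Before L2C, the partners called were those named here. At MII, where 0.845% of all genes rose and 3.41% fell, Tead2 fell by 1.77 ± 0.30, Tfap2c by 1.74 ± 0.12 and the cohesin regulator gene Cdca5 by 0.65 ± 0.09, and Kdm1b rose by 0.49 ± 0.08. At E2C, where 5.38% rose and 8.99% fell, Dr1 fell by 1.01 ± 0.25, Tead2 by 1.16 ± 0.26, Dppa4 by 1.70 ± 0.25 and Dppa2 by 1.45 ± 0.14. Smc3 rose by 1.70 ± 0.23 at E2C, from 6.74 and 5.03 to 22.3 and 20.1 TPM. Also higher at E2C were Trim28 (1.98 ± 0.32), Kdm1b (1.47 ± 0.19), Smc1a (1.01 ± 0.18) and Smarca5 (0.66 ± 0.16). Of 23 tested SWI/SNF subunits, limma called 0 at MII and 0 at E2C, where an unadjusted p under 0.05 was found for 2657 and 3273 genes over the whole table.

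The injected E2C embryos gave the mDKO comparison again in separate libraries with mCherry. Nfyc and Ctcf were higher and Trim24 was lower in mDKO than in control embryos: 2 of 8 members higher, against 26.9% of all tested genes, and 1 lower, against 20.0%. Nfyc was at 83.9 and 86.2 TPM in control embryos and 169.9 and 166 in mDKO, far apart, a rise of 0.97 ± 0.10, adjusted p = 1.32e-04 in limma. Ctcf was at 33.0 and 36.1 TPM in control embryos and 50.2 and 50.9 in mDKO, also apart, a rise of 0.54 ± 0.11, adjusted p = 0.00506 in limma. Both passed under every alternative run. Trim24 was at 22.9 and 26.5 against 18.9 and 19.3 TPM, a fall of 0.35 ± 0.12 (adjusted p = 0.0453 in limma). That call ended with the replicate number as a block (0.0526) and without control replicate 2 (0.223), mDKO replicate 1 (0.196) or mDKO replicate 2 (0.164).

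Without injection, Nfyc and Ctcf had E2C differences of 0.38 ± 0.15 and 0.15 ± 0.16 and did not pass. Injection and set of libraries cannot be told apart, so the injected and uninjected differences were not tested against each other. In the same injected libraries, cumulus and granulosa markers summed to 77.9 to 85.6 TPM in control (4 of 13 at 1 TPM or more, with Amh, Foxl2, Inhba and Ptx3 at 0) and to 343 to 351 in mDKO embryos (6 of 13, with Amh, Foxl2 and Ptx3 at 0). Serpine2 led both. The 8 early 2-cell markers summed to 1549 to 1828 TPM in control and 388 to 428 in mDKO embryos, and the 10 oocyte markers to 9091 to 9579 and 12676 to 12863. Their part in the result was not tested. The remaining 5 members lay between -0.26 (Nfyb) and 0.25 (Smarca4).

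Among the partners of the members, calls went in both directions in most lists. Of all tested genes 26.9% rose and 20.0% fell, with a median of 0.04. Of 22 tested SWI/SNF subunits 7 rose and 6 fell (median 0.07). The core subunit gene Smarcb1 was at 31.5 and 27.6 TPM in control embryos and 98.9 in both mDKO libraries, a rise of 1.71 ± 0.11. Bcl7c (1.81 ± 0.22) and Bcl7b (1.47 ± 0.17), accessory subunit genes, also rose, and Actl6a (-1.02 ± 0.15), Arid1b (-0.71 ± 0.18) and Ss18l1 (-0.52 ± 0.15) fell. The ATPase gene Smarca2 fell by 0.50 ± 0.12.

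Among 16 tested cohesin and CTCF partners 3 rose and 6 fell (median -0.02), beside 26.9% and 20.0% of all tested genes. The core ring genes Smc3 (1.32 ± 0.22) and Smc1a (0.75 ± 0.10) rose, as did Cdca5 (0.37 ± 0.08). The meiotic subunit gene Smc1b (-1.09 ± 0.18), Stag1 (-0.98 ± 0.17) and the loader gene Nipbl (-0.75 ± 0.18) fell. Of 9 NF-Y-related factors 4 rose and 2 fell (median 0.19). The histone-fold genes Pole4 (1.35 ± 0.13), Chrac1 (1.198 ± 0.40) and Drap1 (0.78 ± 0.16) rose, and the GC-box factor genes Sp1 (-0.69 ± 0.19) and Sp3 (-0.61 ± 0.18) fell. Dr1, which fell at E2C without injection from 10.4 and 8.41 to 4.64 and 3.72 TPM, lay the other way here, at 2.41 and 2.67 TPM in control mCherry and 4.39 and 5.08 in mDKO mCherry. It was among the 4 NF-Y-related genes called higher in this comparison. Dr1 was called higher in mDKO Kdm3aWT against control mCherry as well (0.77 ± 0.16, adjusted p = 0.00499 in limma).

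In the Hippo list 2 of 10 tested genes rose and 1 fell (median 0.19), beside the same 26.9% and 20.0% of all tested genes. Vgll4 (1.49 ± 0.23), whose protein competes with YAP1 for TEAD, and Mob1a (1.45 ± 0.19) rose, and Tead2 fell by 1.33 ± 0.24. All 3 tested YAP targets rose (median 1.25): Rpl13 by 2.00 ± 0.16, with the same uncertainty, Rrm2 by 0.87 ± 0.15, and Cyr61, which reached at most 1.80 TPM. Of 15 H3K4 enzymes and subunits 3 rose and 3 fell (median -0.02). Kdm1b (0.97 ± 0.19), Ash2l (0.95 ± 0.22) and Wdr5 (0.58 ± 0.11) rose, and Kmt2c (-0.63 ± 0.17), Dpy30 (-0.57 ± 0.05) and Kmt2d (-0.45 ± 0.16) fell. Of 14 other regulators of genome activation 4 rose and 6 fell (median -0.43). Hdac2 (1.68 ± 0.24) and Rara (0.52 ± 0.17) were among those that rose, and Dppa2 (-1.34 ± 0.15), Tfap2c (-1.13 ± 0.21) and Dppa4 (-1.05 ± 0.25) fell. Of the Trim24 relatives, Trim28 rose by 1.26 ± 0.24.

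In mDKO embryos injected with a Kdm3a construct, both constructs are compared with the same 2 mDKO mCherry libraries. Kdm3a itself, injected RNA included, reached 4122 and 2315 TPM after Kdm3aWT and 4043 and 3907 after Kdm3aHA; the enzyme was not measured. Marker levels moved in the same libraries. Cumulus and granulosa markers summed to 343 to 351 TPM in mDKO mCherry, 249 to 254 after Kdm3aWT (4 of 13 at 1 TPM or more, Amh and Foxl2 at 0) and 236 to 250.1 after Kdm3aHA (3 of 13, Amh, Amhr2, Foxl2 and Ptx3 at 0), with 3 of 6 tested called lower for each construct. Early 2-cell markers summed to 388 to 428, 652 to 760.5 and 518 to 564 TPM, with 6 and 2 of 8 called higher. Their part in the members' values was not tested. With Kdm3aWT, 1 member was lower, against 10.8% of all tested genes, and 0 were higher, against 0.949%. It was Nfyc, at 139 and 118 TPM, below the 169.9 and 166 of mDKO mCherry and above the 83.9 and 86.2 of control mCherry. Nfyc fell by 0.39 ± 0.10 (adjusted p = 0.0431 in limma). All genes together had a median of -0.19 here, which size factors brought to -0.0027, and with them Nfyc stood at -0.16 (adjusted p = 0.447). The call also ended with no filter (0.0994), with only the 4 libraries compared (0.0791), without either mCherry replicate (0.287 and 0.214) and without Kdm3aWT replicate 2 (0.0796). Ctcf, at 36.1 and 39.4 TPM, stood below both mDKO mCherry libraries at -0.41 ± 0.11 with an adjusted p of 0.0511 in limma, and passed with the replicate number as a block (0.0460) and without Kdm3aWT replicate 2 (0.0458). Nfyb, at 7.86 and 13.2 TPM, was at -0.56 ± 0.21 (adjusted p = 0.128 in limma), and was called lower without Kdm3aWT replicate 2 (0.0164).

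With Kdm3aHA, 2 members were lower than in mDKO mCherry, against 9.29% of all tested genes, and 0 were higher, against 1.54%. Ctcf was at 26.3 and 29.3 TPM against 50.2 and 50.9, a fall of 0.84 ± 0.11, adjusted p = 0.00272 in limma. It lay below the control mCherry libraries as well (33.0 and 36.1 TPM), and passed under every alternative run, up to an adjusted p of 0.0478. Nfyc was at 106 and 105 TPM, between mDKO mCherry and control mCherry, a fall of 0.66 ± 0.10 (adjusted p = 0.00456 in limma). It did not pass without mDKO mCherry replicate 1 (0.0749) or replicate 2 (0.0554). Trim24 was at 14.2 and 13.9 TPM after Kdm3aHA and at 14.0 and 14.4 after Kdm3aWT, below the 18.9 and 19.3 of mDKO mCherry in both cases, with adjusted p-values of 0.0689 and 0.0714 in limma. With only the 4 libraries compared, the Kdm3aHA difference passed (0.0474).

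**Figure D4:**
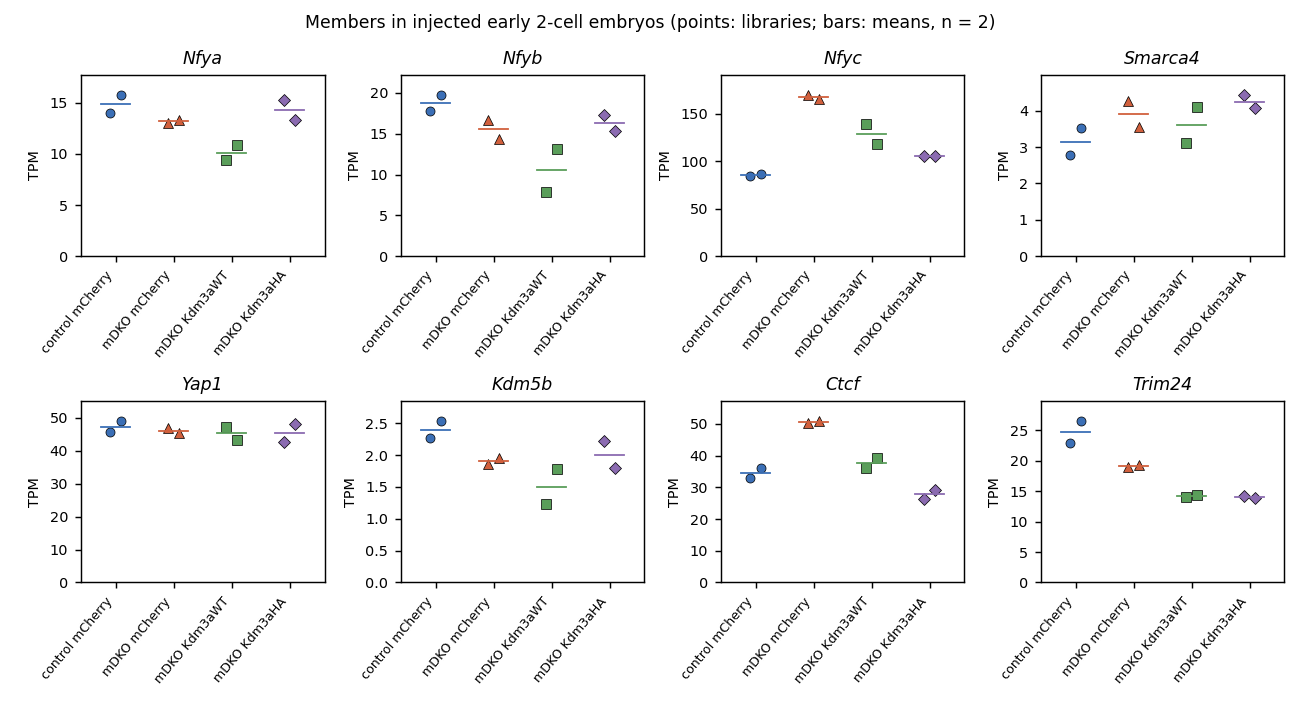
Level of each member in TPM (linear axes from 0, own range per panel) in injected E2C embryos: control with mCherry (circles), and mDKO with mCherry (triangles), Kdm3aWT (squares) or Kdm3aHA (diamonds); points are libraries and bars means. Nfyc and Ctcf stand highest in mDKO mCherry, and the 4 Yap1 groups overlap between 42.7 and 49.0 TPM.

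The constructs were compared directly: limma called 0 of 8 members between Kdm3aWT and Kdm3aHA (3.29% of all tested genes were called), with 4 members and 2537 of all genes at an unadjusted p under 0.05. Those members were Ctcf (0.43 ± 0.11, adjusted p = 0.0777), Nfya (-0.46 ± 0.14, adjusted p = 0.108), Nfyb (-0.63 ± 0.21, adjusted p = 0.136) and Nfyc (0.28 ± 0.10, adjusted p = 0.153). Nfya was at 9.36 and 10.8 TPM after Kdm3aWT and at 15.3 and 13.3 after Kdm3aHA, so the groups did not overlap. Ctcf passed with size factors (0.56, adjusted p = 0.0340). Without Kdm3aWT replicate 2, Nfyb (0.0132) and Nfyc (0.0256) passed.

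Set against control mCherry, the mDKO Kdm3aWT embryos had 1 member higher (17.0% of all tested genes were) and 3 lower (29.6%). Nfyc remained above control at 0.59 ± 0.10 (adjusted p = 0.00204 in limma). Trim24 (-0.75 ± 0.12, adjusted p = 0.00161), Nfyb (-0.82 ± 0.21, adjusted p = 0.0140) and Nfya (-0.52 ± 0.14, adjusted p = 0.0166) were lower. Nfya did not pass with size factors (0.0690), where the all-gene median of -0.17 moved to -0.014, nor without control mCherry replicate 2 (0.0943) or Kdm3aWT replicate 1 (0.0706). Nfyb did not pass without those libraries either (0.0775 and 0.0540), nor with no filter (0.104). Ctcf passed as higher with size factors (0.31, 0.0304), and Kdm5b as lower without Kdm3aWT replicate 2 (-0.61, 0.0495).

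In wild-type 4C embryos Nfya and Yap1 were at the low end and Nfyb at the high end of the members. All groups at this stage were injected, and no member was called between them. With mCherry, Nfya was at 2.76 and 1.19 TPM and Yap1 at 9.54 and 4.83, while Nfyb was at 119 and 132. Kdm5b was at 34.3 and 22.5 TPM in the mCherry group, 54.2 and 46.2 after Kdm3aWT and 32.0 and 52.6 after Kdm3aHA. The 2 Kdm3aWT libraries lay above both mCherry libraries, and the Kdm3aHA libraries spanned a wider range. Limma called 0 of 8 members and 0.00% of 9669 genes in each of the 3 comparisons. Kdm3a itself, injected RNA included, was not called either. It was at 21.8 and 6.24 TPM with mCherry, 108 and 53.4 after Kdm3aWT and 70.5 and 161 after Kdm3aHA. Against mCherry it stood at 2.58 ± 0.62 with Kdm3aWT (adjusted p = 0.490 in limma) and 3.07 ± 0.62 with Kdm3aHA (0.769). The absence of calls at 4C therefore does not show that the members were unchanged. Unadjusted p-values under 0.05 numbered 0 among the members and 776 for Kdm3aWT against mCherry, 264 for Kdm3aHA against mCherry and 227 between the constructs among all genes.

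Replicates differed widely at 4C: Nfyc was at 136 and 60.5 TPM and Smarca4 at 16.3 and 5.70 in the mCherry libraries. The members' median log2 fold change was 0.64 with Kdm3aWT and 0.50 with Kdm3aHA, beside 0.44 and 0.35 over all tested genes, which size factors brought to 0.014 and 0.0090. The largest single difference was that of Nfya with Kdm3aWT, 3.53 and 5.99 TPM against the mCherry values above, at 0.97 ± 0.52 (adjusted p = 0.575 in limma). Nfyb was the member nearest to 0 with Kdm3aHA, at -0.16 ± 0.39.

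**Figure D5:**
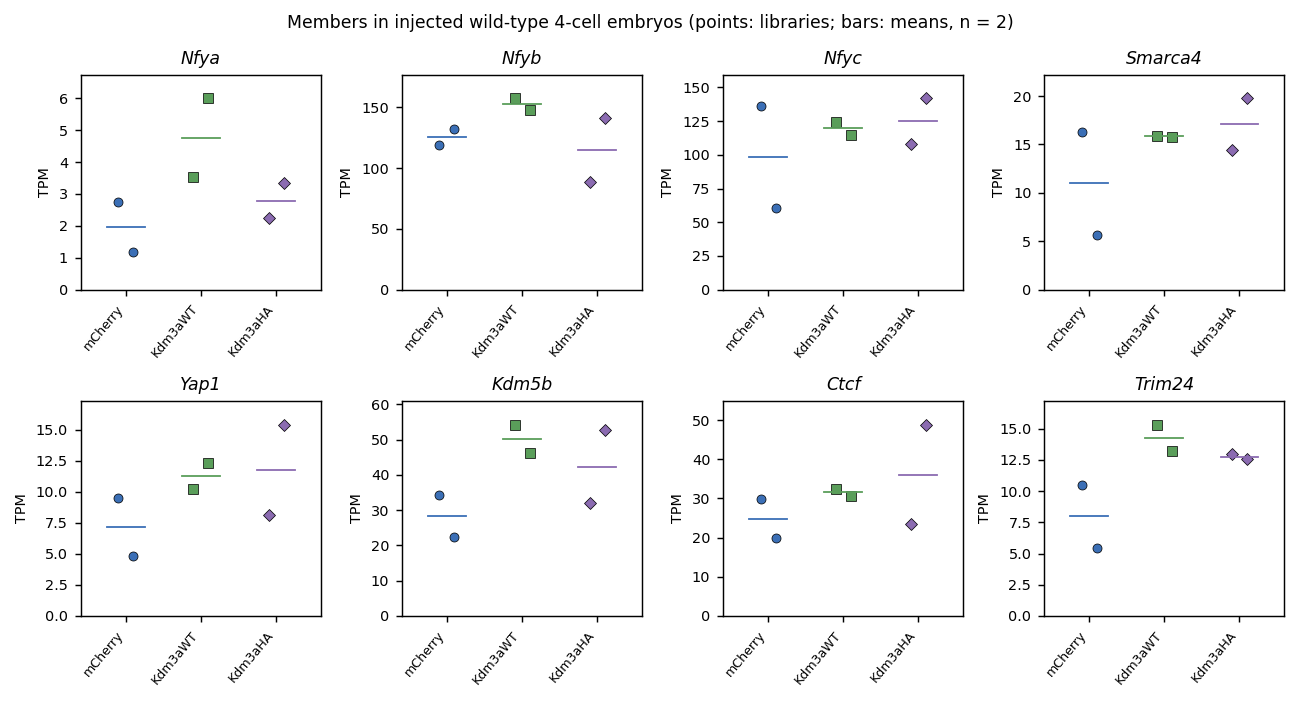
Level of each member in TPM (linear axes from 0, own range per panel) in wild-type 4C embryos injected with mCherry (circles), Kdm3aWT (squares) or Kdm3aHA (diamonds); points are the 2 libraries of a group and bars their mean. Replicates lie far apart in several panels, as for Nfyc with mCherry at 136 and 60.5 TPM.

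For each member, genes with the most similar course over the 12 uninjected libraries were named. Likeness was the root mean square difference of centred log2(TPM + 1) values. The candidates were 7902 genes with a mean of at least 5 TPM, after predicted-gene, clone and Rik names were left out. The closest to Nfyb were Tfb2m (0.139) and Eif4a3 (0.172), to Kdm5b Adi1 (0.188) and Lbhd1 (0.242), and to Smarca4 Polr3d (0.179) and Tra2b (0.207). Tfb2m, a mitochondrial transcription factor gene, was at 195 and 170 TPM in control L2C embryos and 107 and 103 in mDKO. The closest to Nfya were Zc3h7b (0.296) and Sh3pxd2a (0.311), and to Yap1 Atp11a (0.111) and Hs2st1 (0.129). Those to Nfyc were Twf1 (0.153) and Zfp638 (0.155), to Ctcf Pnp (0.104) and Bptf (0.151), and to Trim24 Rras2 (0.176) and Vps4a (0.184). These values describe 12 libraries that share stages, genotypes and kits.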

How the data were processed

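RNA-seq of 26 libraries (13 groups of 2) was read as TPM as deposited by the authors, in 3 tables with 1 column per library. The submitters' processing notes list RSEM 1.3.1, STAR 2.7.10b, SAMtools 1.9, Bowtie2 2.3.4.1 and mm10, without the role of each. Annotation and strand settings were not found in the labels. All columns matched 1 sample by name, so 0 were left out. TPM keeps no depth, so no counting interval is given.

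The fits were made in R 4.3.3 with limma 3.58.1 and log2(TPM + 1) values, a scale that understates changes of low genes: lmFit, eBayes with trend, two-sided p-values, Benjamini-Hochberg adjustment over all genes with at least 1 TPM in at least 2 libraries of the fit, and calls at an adjusted p under 0.05. The procedure was tested on simulated data. Comparisons within a stage used its 4 libraries, stage contrasts and differences of effects the 12 uninjected libraries, and injected comparisons the 8 E2C or 6 4C libraries. An exact permutation test of 2 against 2 cannot go below 0.333. All 8 members were tested in each of 17 comparisons. The members, gene lists and marker lists were chosen with earlier results of these data known. Named beside the members were their paralogues, the 3 called genes of each list with the largest change in each direction in the comparisons of mDKO with control, and the 2 most similar profiles. One result is not reported here. Marker lists were oocyte, early 2-cell transcription, cumulus and granulosa, sperm and spermatid, and blood. Alternatives were a pseudocount of 0.1, no filter, median-ratio size factors, the replicate number as a block, other sets of libraries in the fit, and leaving out each library. Gene coordinates and promoter windows are GRCm38.p6, the assembly behind mm10.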

Additional observations from a re-analysis of the deposited data

Results flagged for a closer look

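The mDKO effect differed between E2C and L2C for 3 members by a direct test over the 12 uninjected libraries in limma. Nfyb had a difference of -1.19 ± 0.22, at 0.26 at E2C and -0.94 at L2C. Smarca4 had a difference of -1.16 ± 0.37, at 0.10 and -1.06. Kdm5b had a difference of -0.94 ± 0.30, at -0.10 and -1.04. In the injected E2C embryos with mCherry, the mDKO effect was -0.26 ± 0.21 for Nfyb, opposite in sign to the uninjected value. It was 0.25 ± 0.19 for Smarca4 and -0.22 ± 0.19 for Kdm5b, and none of these E2C effects was called. Nfyb passed under every alternative run, while Smarca4 kept its call in 5 and Kdm5b in 2 of 12 alternatives. Groups of 2 are too small to look for single outlying samples.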

How the results depend on the processing

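Of 1238 member values under alternative settings, 1163 stayed on the same side of the threshold, where uncalled values could change sign. A further 53 lost a call and 22 gained one, and 0 called values changed sign. Counts of called members that moved by over 1.5 times under some setting were these; the cause was not tested beyond what each setting changes. At MII the count of 1 became 0 with no filter, with size factors and with all 12 libraries in 1 fit, 0 to 0 without single libraries, and 2 with the replicate block. At E2C the count of 0 was 0 to 1 without single libraries. At L2C the count of 4 became 2 with no filter and 3 to 4 without single libraries. For the E2C minus MII effect 0 became 0 to 1 without single libraries. For the L2C minus E2C effect 3 became 1 with a pseudocount of 0.1, 1 with no filter and 1 to 3 without single libraries. Injected Kdm3aWT against mDKO mCherry went from 1 to 0 with no filter, with size factors and with only the 4 libraries compared, to 2 with the replicate block, and to 0 to 2 without single libraries. Kdm3aHA against mDKO mCherry went from 2 to 1 to 2 without single libraries. Kdm3aWT against Kdm3aHA went from 0 to 1 with size factors and 0 to 2 without single libraries, and Kdm3aWT against control mCherry from 4 to 2 to 5. Other counts moved by at most 1 member: control mCherry against mDKO mCherry (3 to 2), and the stage steps in control (5 to 6, and 5 to 4) and mDKO embryos (4 to 3 or 5 at each step). Same-numbered samples share only a number: their deviations correlated at 0.359 at MII, 0.187 for Kdm3aWT at 4C and between -0.026 and 0.05 in the other 6 comparisons checked, so the replicate block is given as a hint only, and samples were not crossed. Leaving out a library leaves 1 sample in a group, which is then assumed to vary like the others. Kdm5b has no MII value without control replicate 2 or mDKO replicate 2, since it then fell under the filter on low TPM. With 2 pools per group and unknown depth, differences within the replicate spread were not detectable.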
